A study of Mus musculus with 6 samples.

Results

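The kainate and delta glutamate receptor genes examined here were Grik1 to Grik5, which encode the kainate receptor subunits GluK1 to GluK5, the delta receptor gene Grid1, and Neto1 and Neto2, which encode auxiliary proteins of kainate receptors. They were taken by gene symbol, and all 8 were present among the 24972 genes of the table. RNA was sequenced from mouse cortex dissected at postnatal day 7 (P7), in 3 libraries per genotype. Wildtype animals carried the floxed Zmiz1 alleles without Cre (Zmiz1f/f), and Zmiz1-KO animals carried the same alleles with Cre driven by Emx1 (Zmiz1f/f;Emx1Cre). Emx1 is active in the cortical progenitors that give rise to excitatory neurons and much of the glia, and not in the ventral progenitors of cortical interneurons, so the deletion was not directed at every cell of the tissue. The labels speak in one place of isolated progenitor cells, whereas the extraction text and the study's methods describe whole cortex. Markers of neurons, glia, vessels and meninges were all present.

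Values are normalized counts, the read counts per gene after the authors' DESeq2 normalization. They summed to about 32662000 to 33239700 per library. The lowest values stood at a step of 1.83 to 2.11 normalized counts, depending on the library. Dividing each sum by its step gave an estimated 15494900 to 17858400 steps. Whether a step is 1 read is not stated, so the read depth itself is not known. Zmiz1 itself had 8119, 7929 and 7461 normalized counts in wildtype replicates 1 to 3 against 9944, 9779 and 9660.2 in those labelled Zmiz1-KO. The targeted gene was therefore higher under the label of its deletion, by a log2 fold change of 0.32 (SE, the standard error, 0.040, adjusted p = 0.00125 by limma). The table has no value per exon, so the floxed part could not be examined, and the group is called by its label throughout. Xist, the RNA of the inactive X chromosome, was high in 1 wildtype library (replicate 3, 25307) and 1 labelled Zmiz1-KO (replicate 2, 24403), with at most 57.3 elsewhere, so each group held 1 female library.

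Kainate receptors are tetrameric glutamate-gated cation channels that act on both sides of the synapse. GluK1, GluK2 and GluK3, the low-affinity subunits, form channels alone or together, whereas GluK4 and GluK5, the high-affinity subunits, need a low-affinity partner. NETO1 and NETO2 bind the channels, slow their kinetics and influence where they are placed. GluD1, the product of Grid1, shares the architecture of the family but is not opened by glutamate, and it links to presynaptic neurexins through secreted cerebellins.

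The 6 subunit genes are paralogs, so the stretch of coding sequence most alike across all 6 at once is shown first. The closest stretch of each pair was not sought, so a pair can be more alike elsewhere. Proteins translated from the longest coding sequence of each gene in GENCODE M21 were aligned. GluK1, GluK2 and GluK3 were identical at 73.2 to 79.6% of aligned residues, and GluK4 and GluK5 at 69.9%. Identity between these 2 groups was 41.4 to 44.9%, and GluD1 shared 26.0 to 30.6% with the others. The most alike 75 bases (25 codons) lie in the third membrane segment, which lines the channel pore. There, 45 bases and 21 encoded residues were the same in all 6 genes. Capitals mark the bases shared by all 6, and sequences are on the coding strand of GRCm38.
Grik1: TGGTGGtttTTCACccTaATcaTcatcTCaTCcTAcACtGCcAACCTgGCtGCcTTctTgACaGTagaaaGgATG
Grik2: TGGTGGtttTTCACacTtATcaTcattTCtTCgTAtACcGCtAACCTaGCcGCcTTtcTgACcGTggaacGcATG
Grik3: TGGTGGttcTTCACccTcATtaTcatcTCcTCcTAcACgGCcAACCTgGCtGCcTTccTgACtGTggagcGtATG
Grik4: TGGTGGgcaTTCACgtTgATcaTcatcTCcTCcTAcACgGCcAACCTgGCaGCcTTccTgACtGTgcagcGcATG
Grik5: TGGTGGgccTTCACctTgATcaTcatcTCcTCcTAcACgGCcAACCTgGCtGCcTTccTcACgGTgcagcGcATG
Grid1: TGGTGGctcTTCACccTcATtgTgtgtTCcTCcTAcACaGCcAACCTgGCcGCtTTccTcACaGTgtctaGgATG

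The Grik1 stretch lies in exon 14 at chr16:87935991-87936065 (minus strand), that of Grik2 in exon 13 at chr10:49240672-49240746 (minus strand), that of Grik3 in exon 13 at chr4:125694012-125694086 (plus strand) and that of Grid1 in exon 12 at chr14:35452311-35452385 (plus strand). In Grik4 and Grik5 the first 2 bases fall in the preceding exon, and the rest lie in exon 15 at chr9:42543851-42543923 and in exon 16 at chr7:25015901-25015973, both on the minus strand. In this stretch the closest pair, Grik4 and Grik5, differed at 5 of 75 bases, and Grik2 and Grid1, the least alike pair, at 24. Over the whole transcripts, no 75-base stretch of any of the 8 genes occurred unchanged in another of them. Near matches were not sought. The share found in transcripts of any other gene was 0.07% for Grik2, 0.31% for Grid1 and 1.73% for Neto1, and 0% for the remaining 5 genes. Neto1 overlaps an antisense gene over 2.62% of its exon bases, and a library kit that does not mark strand cannot separate the reads there.

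The 8 genes were expressed at very different levels. To compare genes, normalized counts were divided by the length of all annotated exons joined, in kilobases (kb). Grik5 was the highest, with 1863 ± 40.5 normalized counts per kb (SD, n = 3) in wildtype against 1983 ± 21.05 in those labelled Zmiz1-KO. Neto2 followed with 924 ± 52.1 and 907 ± 19.2 per kb. Grik3 had 596 ± 34.4 and 619.7 ± 28.9 per kb, and Neto1 had 518 ± 9.52 and 566 ± 35.2 per kb. Grid1 was lower, at 298 ± 19.8 and 327 ± 6.99 per kb, and Grik2 stood at 225 ± 6.07 and 226 ± 17.7 per kb. Grik1 (136 ± 6.63 and 159 ± 8.16 per kb) and Grik4 (134 ± 13.3 and 142 ± 11.2 per kb) were the lowest. The ranges over the 6 libraries overlapped between Grik3 and Neto1 and between Grik1 and Grik4, and between no other neighbours in this order. The order depends on the length used, since with the longest coding length Neto1 ranked above Grik3 and Grik2 above Grid1.

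**Figure D1:**
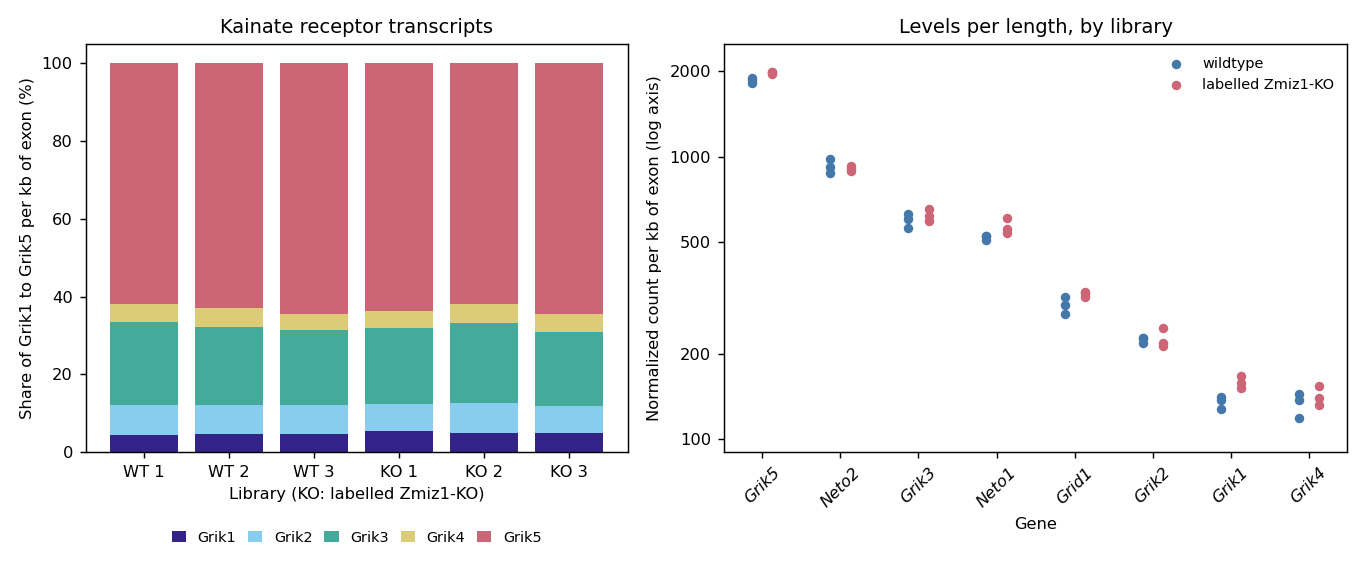
Left, share of each of Grik1 to Grik5 in their summed normalized counts per kb of exon (percent) in each library. Right, normalized counts per kb of exon (log axis) of the 8 genes, 1 point per library. Grik5 makes up 61.8 to 64.5% of the kainate receptor transcripts in every library, and only Grik3 and Neto1, and Grik1 and Grik4, overlap as neighbours in the order.

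The make-up of the kainate receptor transcripts was similar in all libraries. Grik5 took 61.9, 63.0 and 64.4% of the Grik1 to Grik5 transcripts per kb in wildtype replicates 1 to 3 against 63.7, 61.8 and 64.5% in those labelled Zmiz1-KO. Grik3 came second, with 20.2 ± 1.04% in wildtype and 19.8 ± 0.691% in the other group (SD, n = 3 per group). Grik2 contributed 7.63 ± 0.138% and 7.22 ± 0.484%, and Grik4 contributed 4.53 ± 0.376% and 4.54 ± 0.322%. For these 4 subunits the groups overlapped. The share of Grik1 was 4.36, 4.68 and 4.73% in wildtype against 5.37, 4.98 and 4.91% in those labelled Zmiz1-KO, and did not overlap between the groups. Transcripts of the high-affinity subunits exceeded those of the low-affinity subunits by a ratio of 2.09 ± 0.0938 in wildtype and 2.12 ± 0.112 in the other group. Between the high-affinity subunits, Grik5 exceeded Grik4 in every library, by 12.7 to 15.7 times per kb of joined exons. These shares and ratios depend on the length used for each gene. With the longest coding length in place of all exons the ratio of high-affinity to low-affinity transcripts was 1.07, Grik5 made up 47.7%, Grik3 27.9% and Grik2 15.5%.

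Set beside the other ionotropic glutamate receptors, the 5 kainate subunit genes summed to 2953 ± 58.0 normalized counts per kb in wildtype against 3130.0 ± 37.0 in those labelled Zmiz1-KO. The 4 AMPA subunit genes summed to 3706 ± 110.1 and 3822 ± 139 per kb, and the 7 NMDA subunit genes to 3053 ± 41.1 and 3031 ± 29.4 per kb. With these lengths the kainate sum was 95.6, 98.0 and 96.6% of the NMDA sum in wildtype against 102, 105 and 103% of it in those labelled Zmiz1-KO, without overlap. Against the AMPA sum it was 77.8, 80.2 and 81.1% in wildtype and 83.2, 79.6 and 83.1% in the other group, and these overlapped. The percentages depend on the length used, since with the longest coding length the kainate sum was 58.7 ± 0.870% of the NMDA sum in wildtype and 63.0 ± 1.13% in the other group, and 56.7 ± 1.26% and 60.9 ± 1.24% of the AMPA sum (SD, n = 3 per group), with no overlap in either. No test was made of these sums.

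The groups were compared for a difference in the transcripts of these receptors under the Zmiz1-KO label at P7. All 8 genes passed the filter on low values. None of them passed an adjusted p of 0.05 over all 15800 tested genes (limma on log2(normalized count + 1), Benjamini-Hochberg), nor did any with limma-voom. Over all tested genes 0.411% passed, 0.165% as higher and 0.247% as lower under the Zmiz1-KO label. At an unadjusted p under 0.05, 4 of the 8 genes were counted, Grik1, Grik5, Grid1 and Neto1, against 11.0% of all tested genes. That count fell to 2 without wildtype replicate 1 (Grik1 and Neto1), without replicate 2 labelled Zmiz1-KO (Grik1 and Grik5) and without replicate 3 labelled Zmiz1-KO (Grik1 and Neto1), and Grik1 was counted with any single library left out. In the same 4 genes all 3 libraries labelled Zmiz1-KO lay above all 3 wildtype libraries, and in none did they lie below. Groups without overlap were found in 16.3% of all tested genes, 8.10% with higher and 8.16% with lower values under the Zmiz1-KO label. The log2 fold change was above 0 in 7 of the 8 genes, against 49.9% of all tested genes. Its median was 0.09 in the 8 genes and -0.00018 over all tested genes. The members are not independent of each other, and their count was not tested. In a cortex that mixes cell types, a change in RNA per cell and a change in the number of cells of a type cannot be told apart.

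**Figure D2:**
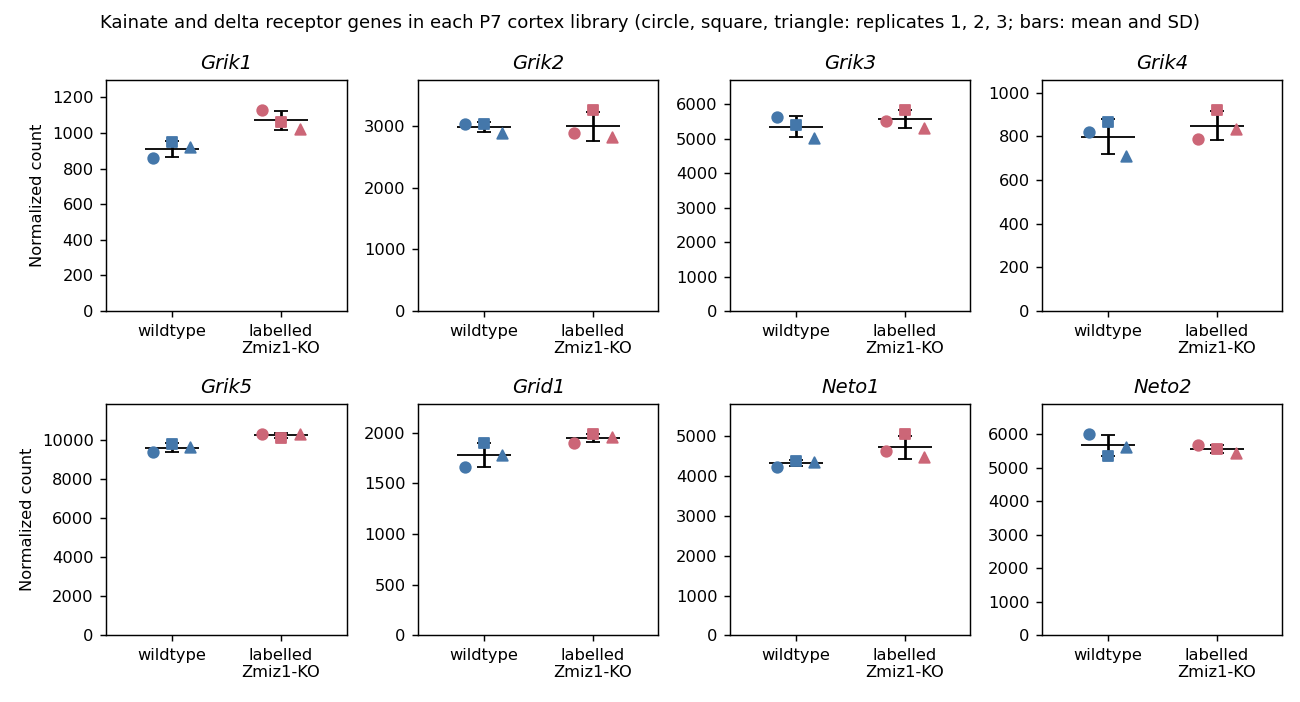
Normalized counts of the 8 genes in each library (points), with the mean (long dash) and SD (bars) of the 3 libraries of each group; every axis starts at 0. The groups do not overlap in Grik1, Grik5, Grid1 and Neto1, and overlap in the other 4 genes.

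Among the low-affinity subunits, Grik1 showed the largest difference of the 8 genes. GluK1 is the subunit best known from cortical and hippocampal interneurons. Grik1 lies on chromosome 16 of GRCm38 from 87895900 to 88290265. It had 862, 949 and 922 normalized counts in wildtype replicates 1 to 3 against 1129, 1059.7 and 1021 in those labelled Zmiz1-KO. All 3 wildtype values lay below the lowest value of the other group. The log2 fold change was 0.23 (SE 0.066), or 17.4% with a 95% confidence interval of 6.65 to 29.3%, and it missed the threshold (adjusted p = 0.176 by limma; exact two-sided permutation p = 0.1, the smallest that 3 against 3 libraries allow). With each library left out in turn, it stayed between 0.19 and 0.26.

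Grik2, on chromosome 10 from 49094833 to 49788766, encodes GluK2, a principal channel-forming subunit of the brain. It had 3032, 3032 and 2893 normalized counts in wildtype against 2893, 3265 and 2832 in those labelled Zmiz1-KO. The groups overlapped, and replicate 2 labelled Zmiz1-KO was the highest of the 6. The log2 fold change was 0.0028 (SE 0.054, adjusted p = 0.993 by limma), with a 95% confidence interval of the difference from -7.37 to 8.38%, and its sign turned without that library (-0.06). Grik3, on chromosome 4 from 125490700 to 125714173, encodes GluK3, a subunit with an especially low affinity for glutamate. Its values were 5616, 5407 and 5009 in wildtype against 5526, 5836 and 5319.8 in those labelled Zmiz1-KO. They overlapped, with a log2 fold change of 0.06 (SE 0.049, adjusted p = 0.726 by limma; interval of the difference from -3.05 to 11.8%). With each library left out in turn, it ran from 0.012, without wildtype replicate 3, to 0.095.

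Of the high-affinity subunits, Grik5, on chromosome 7 from 25009849 to 25072346, encodes GluK5, the usual partner of GluK2, and was the more abundant. It had 9403, 9816 and 9667 normalized counts in wildtype against 10309, 10120.2 and 10308 in those labelled Zmiz1-KO. The groups did not overlap. The log2 fold change was 0.09 (SE 0.036), or 6.42% with an interval of 0.905 to 12.2% (adjusted p = 0.360 by limma; exact permutation p = 0.1). Grik4, on chromosome 9 from 42518135 to 42944493, encodes GluK4, which is known from hippocampal CA3 neurons and is sparse in cortex. Its values, 820.4, 863 and 709 in wildtype against 789, 920.5 and 835 in those labelled Zmiz1-KO, overlapped. Its log2 fold change of 0.09 (SE 0.082, adjusted p = 0.751 by limma) had the widest interval of the 8 genes, from -5.63 to 20.2%, and ran from 0.0086 to 0.15 with each library left out in turn.

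Grid1 lies on chromosome 14 from 34820108 to 35583379, on the same chromosome as Zmiz1 and 9.15 Mb beyond it. It had 1659, 1895 and 1782 normalized counts in wildtype against 1902, 1984 and 1956 in those labelled Zmiz1-KO. The groups did not overlap, but wildtype replicate 2 came within a few counts of the lowest library of the other group. The log2 fold change was 0.13 (SE 0.055), or 9.61% with an interval of 1.08 to 18.9% (adjusted p = 0.379 by limma; exact permutation p = 0.1). It ran from 0.08, without wildtype replicate 1, to 0.18.

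The 2 auxiliary genes differed in the sign of their fold change. Neto1, on chromosome 18 from 86394952 to 86506718, was read at 4235, 4379 and 4366 normalized counts in wildtype against 4633, 5055 and 4489 in those labelled Zmiz1-KO. All 3 wildtype values were below those of the other group, in which replicate 2 stood apart. The log2 fold change was 0.13 (SE 0.047), or 9.08% with an interval of 1.85 to 16.8% (adjusted p = 0.316 by limma; exact permutation p = 0.1), and 0.08 without that replicate. Neto2, on chromosome 8 from 85636588 to 85700924, was read at 5999, 5363 and 5629 in wildtype against 5676, 5555 and 5441 in those labelled Zmiz1-KO. Its groups overlapped, with a log2 fold change of -0.03 (SE 0.045, adjusted p = 0.890 by limma; interval of the difference from -8.03 to 4.88%), the only one of the 8 below 0. The ratio of Neto2 to Neto1 per kb was 1.930, 1.669 and 1.757 in wildtype against 1.670, 1.498 and 1.652 in those labelled Zmiz1-KO, so that the groups overlapped narrowly.

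**Figure D3:**
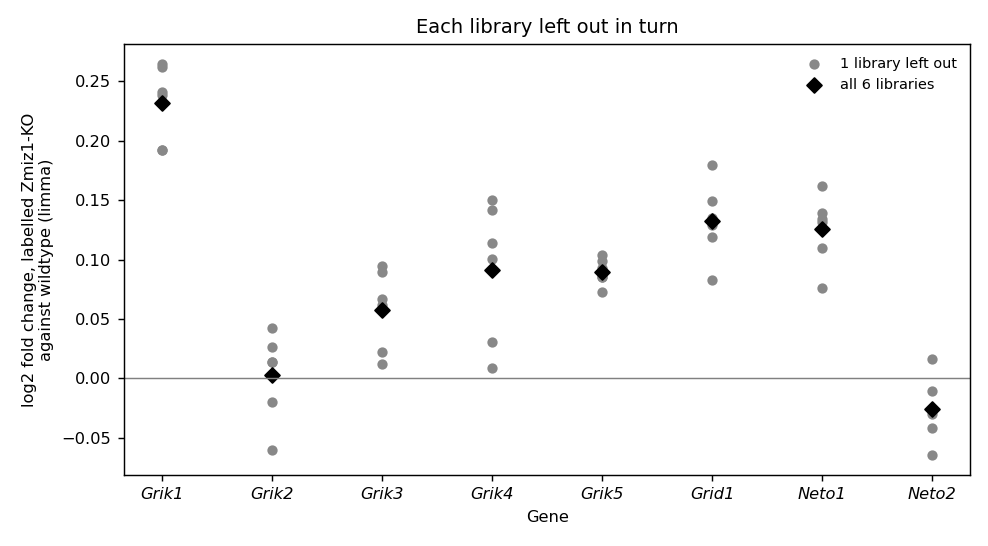
Log2 fold change (limma, labelled Zmiz1-KO against wildtype) of each gene with all 6 libraries (diamond) and with each library left out in turn (6 grey points per gene). Grik1 stays between 0.19 and 0.26, while Grik2 and Neto2 fall on both sides of 0.

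The genes that act with these receptors were counted from a list of 21, all of them tested. It holds cerebellins, neurexins, the C1q-like ligands of kainate receptors, scaffold and trafficking proteins, factors of receptor turnover, and the enzymes that edit the RNA of GluK1 and GluK2. None passed an adjusted p of 0.05 (limma), 0 of 21 also with limma-voom, and 3 had an unadjusted p under 0.05, a share near the 11.0% of all tested genes. All 3 were lower under the Zmiz1-KO label. Of the 21, 11 had a log2 fold change above 0 and 10 below, with a median of 0.00048. The cerebellin gene Cbln2, a secreted ligand that joins GluD receptors to neurexins, had 946, 816 and 856 normalized counts in wildtype against 667, 756 and 685 in those labelled Zmiz1-KO. These groups did not overlap, and the log2 fold change was -0.31 (SE 0.077, adjusted p = 0.114 by limma). It passed only without replicate 2 labelled Zmiz1-KO. Klhl24, whose product binds GluK2 and reduces kainate currents, had 2419 ± 62.2 and 2191 ± 128 normalized counts (SD, n = 3 per group) and groups without overlap, with a log2 fold change of -0.14 (adjusted p = 0.295 by limma). The third, Cbln3, was low and its groups overlapped, with a log2 fold change of -0.54 (adjusted p = 0.431 by limma). C1ql2, a secreted synaptic organizer that binds kainate receptors, had 56.4 and 77.7 normalized counts as group means and the highest log2 fold change of the list, 0.50 (adjusted p = 0.490 by limma). The editing enzymes Adarb1 (-0.04) and Adar (0.04), the neurexins Nrxn2 (0.06) and Nrxn3 (0.04) and the scaffold Dlg4 (0.04) had log2 fold changes within 0.1 of 0, and limma adjusted p values from 0.621 to 0.827.

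**Figure D4:**
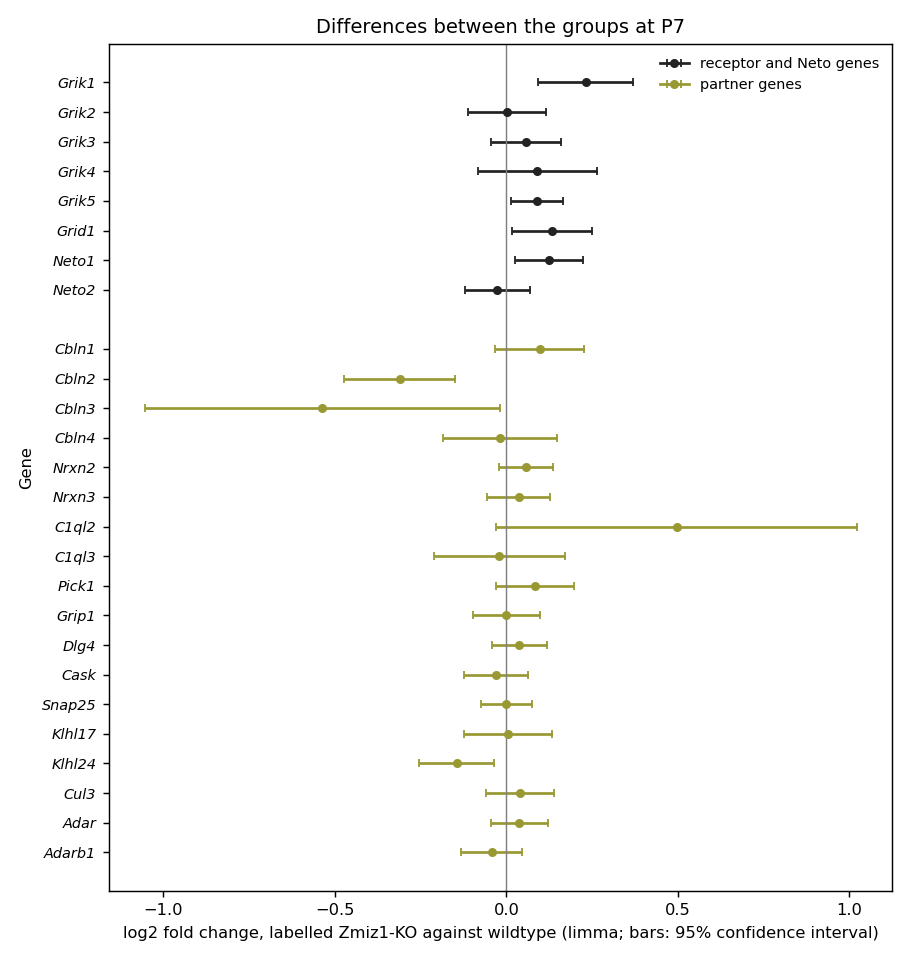
Log2 fold change, labelled Zmiz1-KO against wildtype (limma, points) with 95% confidence intervals (bars), of the 8 receptor and Neto genes (black) and 18 of the 21 partner genes (olive). The intervals of Grik1, Grik5, Grid1 and Neto1 lie above 0 and those of Cbln2, Cbln3 and Klhl24 below 0 before adjustment, and none of the genes drawn passes an adjusted p of 0.05.

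None of the 11 AMPA and NMDA subunit genes passed either (limma, and limma-voom). Of these, 3 had an unadjusted p under 0.05 (11.0% of all tested genes did), Gria1 (0.16), Gria2 (-0.22) and Grin2a (-0.15), with limma adjusted p values of 0.112, 0.132 and 0.293. Gria2 passed without replicate 2 labelled Zmiz1-KO. The median log2 fold change of the 11 genes was 0.01.

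Some marker genes of the cell types in the tissue differed between the groups. All 13 interneuron markers had a log2 fold change above 0, with a median of 0.20, and 7 had an unadjusted p under 0.05, against 49.9% of all tested genes above 0 and 11.0% at such a p, although none passed the adjusted threshold (limma). Their sum, in which Gad1 was the most abundant, was 19869, 24545 and 22347 normalized counts in wildtype against 25762, 27716 and 26176 in those labelled Zmiz1-KO, without overlap. The 5 striatal neuron markers were likewise above 0 (median 0.37, none passing), with sums of 6921, 9055 and 9595 in wildtype and 10486, 10969 and 9800.2 in the other group. The 6 markers of excitatory neurons had a median of -0.12 and no gene passing, and the 5 markers of upper layers had a median of -0.25, with Rorb (-0.43) and Pou3f2 (-0.27) lower (adjusted p of 0.00856 and 0.0213 by limma). Among 5 oligodendrocyte precursor markers (median -0.13) Olig1 fell (-0.32), and among 4 meningeal fibroblast markers (median 0.27) Col1a2 rose (0.32), with adjusted p of 0.00173 and 0.00464 by limma. The 5 astrocyte markers had a median of -0.05 and were mixed, since Aqp4 fell (-0.29, adjusted p = 0.00499 by limma) while Gjb6 (0.23) and Gfap (0.05) were above 0 without passing. The choroid plexus markers, mostly Ttr, summed to 193, 8011 and 6104 in wildtype and 3013, 179.7 and 4615 in the other group, which overlapped. The markers of deep layers, oligodendrocytes, microglia and endothelium had no gene passing, with medians of -0.03, -0.18, -0.09 and -0.07. None of the markers of any list was at 0 in all libraries. Their part in the differences of the receptor genes was not tested.

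Over the 6 libraries, the Pearson r of log2 values was between 0.65 and 0.94 for the 6 pairs among Grik1, Grik5, Grid1 and Neto1, and between 0.70 and 0.82 for the pairs among Grik2, Grik3 and Grik4. These sets were picked after the values were seen, and the first shares the difference between the groups. Neto1 also had an r of 0.55 to 0.58 with Grik2, Grik3 and Grik4, and Neto2 had an r of -0.80 with Grid1 and -0.56 with Grik5. Among 12782 tested genes with a mean of at least 100, the 2 most like each gene were Spry4 (r = 0.995) and Fbxl16 (0.993) for Grik1, Ckb (0.998) and Slc6a8 (0.995) for Grik5, Otof (0.993) and Zcchc12 (0.993) for Grid1, and Colec12 (0.995) and Apod (0.995) for Neto1. For Grik2 they were Cep83os (0.989) and Arhgap42 (0.984), for Grik3 Tmem132c (0.992) and Kank3 (0.985), for Grik4 Astn2 (0.993) and Ccdc130 (0.990), and for Neto2 Vsnl1 (0.990) and Fam241a (0.988). With 6 points such values are common, and 70 genes had an r above 0.9 with Grik3 and 263 with Grik5.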

How the data were processed

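Total RNA of dissected P7 cortex was made into TruSeq v2 libraries. The authors aligned the reads to mm10 with STAR and normalized gene counts with DESeq2 in Illumina BaseSpace, and deposited a table of normalized signal values, 1 column per library. Versions, annotation and counting settings are not given in the sources used here. Between 87.9 and 91.5% of low values and 19.5 to 24.8% of high values lay within 0.1 of a whole multiple of a library's step. The step is known only roughly (2.01 in wildtype replicate 1, where most of the lowest values ran from 1.97 to 2.04). It is too rough to place high values on whole multiples, so their share tells nothing about them. Whole reads were therefore not recovered, and no count model was used. Whether replicates came from single animals is not stated, so p values measure the spread between these libraries.

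Genes reaching 10 in 3 or more libraries were tested on log2(value + 1) by limma 3.58.1 (under R 4.3.3), using an intensity trend, robust estimation and Benjamini-Hochberg adjustment over all 15800 tested genes. Calls had an adjusted p at or under 0.05. The procedure was tested on simulated data. Alternatives were another pseudocount (0.1 or 10), other filters on low values, median-ratio and upper-quartile scaling, limma-voom, estimation without robustness, an adjusted p of 0.1, the replicate number as a block, log2 Xist as a covariate, each library left out, and other gene lengths. Positions, exon lengths and transcripts were from GENCODE release M21 (GRCm38), proteins were aligned with MAFFT (version 7.526), and figures were drawn with matplotlib (version 3.10.9). The named genes were the members, Zmiz1, Xist, the genes of the lists and, for each member, the 2 genes of highest Pearson r. The members and lists were chosen with earlier results of these data known. Values of some genes of the lists are not reported here.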

Additional observations from a re-analysis of the deposited data

How the results depend on the processing

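None of the 8 genes passed the threshold under any of the 18 alternatives run for each. The direction was kept in all 18 for Grik1, Grik3, Grik4, Grik5, Grid1 and Neto1. In several of the 18 it could not turn. Other filters, estimation without robustness, an adjusted p of 0.1 and the block leave the fold change itself as it was. Median-ratio scaling hardly moves it either, since the factors were equal. The lowest adjusted p over the alternatives was 0.121, for Grik1 with the replicate number as a block (limma). With each library left out in turn, the log2 fold change ran from -0.060 to 0.042 for Grik2 and from -0.065 to 0.016 for Neto2. The count over all tested genes was 65, and 12 (without replicate 3 labelled Zmiz1-KO) to 152 (without replicate 2 labelled Zmiz1-KO) with a library left out, 17 without robust estimation, 106 at an adjusted p of 0.1 and 168 under the block. Among the partner genes and among the AMPA and NMDA subunits it was 0 to 1 with a library left out (Cbln2 and Gria2, both without replicate 2 labelled Zmiz1-KO), and for the latter 2 with the block, Gria1 and Gria2. The correlations of the deviations of same-numbered libraries were -0.0051, -0.11 and -0.0063, against -0.096 to 0.106 between differently numbered ones. They gave no sign of pairing by number, but 3 libraries per group cannot exclude that some belong together. The block changed no other call among the receptor, Neto and partner genes. The deposited values already had equal median-ratio factors.

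With the longest transcript as length, the shares of Grik1 to Grik5 over all libraries were 7.15, 8.39, 16.1, 3.69 and 64.7%, and the order of the 8 genes did not change. The kainate sum over all libraries, 100.007% of the NMDA sum and 80.8% of the AMPA sum with all exons, was 74.5% of the NMDA sum with the longest transcript, and 60.9% and 58.8% with the longest coding length, both chosen after the data were seen. With the longest coding length, chosen after the data were seen, the shares of Grik2 to Grik5 were 15.5, 27.9, 4.04 and 47.7% and the ratio of high-affinity to low-affinity transcripts was 1.07. Neto1, Grik3, Grik2 and Grid1 then ranked 3, 4, 5 and 6. The length of the protein from a sequence table was not run, since no such table was used here. The causes of these changes were not tested.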
